A study of Drosophila melanogaster with 8 samples.

Results

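The genes described here are 10 chaperone genes of Drosophila melanogaster. They are the small heat shock genes Hsp22, Hsp23, Hsp26, Hsp27 and Hsp67Bc, the constitutive cytosolic chaperone genes Hsc70-4 and Hsp83, the mitochondrial chaperone genes Hsp60 and Hsc70-5, and Hop, which encodes the adaptor between Hsp70 and Hsp90. They were chosen by symbol from a table of 14012 genes, in which all 10 were found (Hsp60 is now named Hsp60A and Hop is now Stip1). The libraries were made from polyadenylated RNA, 4 of them from S2 exosomes (exosomal mRNA) and 4 from S2 cells (total cellular mRNA). S2 is a line derived from fly embryos that resembles phagocytic blood cells, and exosomes are vesicles of endosomal origin that are shed into the medium. No treatment, heat or genetic change is given for either group. The libraries are numbered 1 to 4 in each group, and the design text speaks of 4 experiments. Separate cultures are not stated, so the spread among the 4 libraries of a source, which underlies each p-value, could be technical. The limma test pooled that spread over genes of similar mean level, so an SE given here is not the gene's own spread.

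Chaperones bind proteins that are not yet folded or have lost their fold. Small heat shock proteins share an alpha-crystallin domain, hold unfolding proteins without using ATP, and in flies most of their genes are switched on by the heat shock factor Hsf during stress and by the steroid hormone ecdysone in development. Hsc70-4 and Hsp83 work in unstressed cells too. Hsc70-4 is the main cytosolic Hsp70 of the fly and also strips clathrin from vesicles, Hsp83 is the fly Hsp90, and Hop passes client proteins between them. The corresponding Hsc70 and Hsp90 proteins are common constituents of exosomes in many species, whereas the values here concern the mRNAs.

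Values are FPKM, fragments scaled to the length of the transcript and to the size of the library, which permits levels of different genes to be compared within a library. The summed FPKM spanned 91304 to 850262 over the exosome libraries and 102736 to 1140885 over the cell libraries. Levels are therefore also given as a share of the summed FPKM and as a rank percentile among all 14012 genes. The percentile counts genes at 0 too. Genes above 0 numbered from 3145 in exosome replicate 2 to 9735 in cell replicate 1, so percentiles of different libraries compare only roughly. In exosome replicate 2, Hsc70-5 was at the 84.0th percentile on about 2 fragments. Judged by the steps of low values, exosome replicate 2 held an estimated 99000 fragments, exosome replicate 3 held 1933000, exosome replicate 4 held 2065000, and cell replicates 2 to 4 held 1963000 to 6122000. No step was found in either library numbered 1, so their depth is unknown, and whether their values are on the same FPKM scale as those of the other 6 could not be settled from the values. FPKM comparisons that include these libraries carry that limit. Among 145 genes whose median over the other libraries was 200 FPKM or more, exosome replicate 1 gave 64 as 0, and a 0 there may be a failed estimate. The same count was at most 2 in any other library. Of 12 blood cell markers, 5 exceeded an FPKM of 1 in all 4 cell libraries. The libraries of the cell group differed in these markers, as shown by a pair chosen after their values were seen. Hml, a hemocyte gene, was at 81.8 FPKM in cell replicate 1 and at 0.0372 to 1.04 in the other cell libraries, whereas He, another hemocyte gene, was at 0.196 in cell replicate 1 and at 3.84 to 49.3 in the others. Of 10 markers of fat body, neurons, muscle and germ line, 8 were at or below 1 in every cell library.

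The mRNAs of 4 of the 5 small heat shock genes were detected at high rank in every exosome library, and their levels in exosomes and cells overlapped. Hsp26, Hsp23, Hsp22 and Hsp27 ranked between the 93.6th and the 99.2nd percentile of all genes in exosomes. In cells they ranked between the 98.5th and the 99.5th percentile in replicates 2 to 4 and between the 73.3rd and the 90.9th in replicate 1. In flies the products of these genes act in different compartments: Hsp23 and Hsp26 in the cytosol, Hsp27 in the nucleus and Hsp22 in mitochondria.

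Hsp26 reached 117.9, 312.0, 29.5 and 59.8 FPKM in exosome replicates 1 to 4, against 65.8, 2885, 83.7 and 160.2 FPKM in cell replicates 1 to 4. The groups overlapped, with cell replicate 2 far above the other 7 libraries and exosome replicate 3 the lowest. On the log2(FPKM + 1) scale Hsp26 differed, exosome minus cell, by -1.31 (SE 1.82, limma adjusted p = 0.810).

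Hsp23 came to 63.6, 430.0, 14.1 and 82.0 FPKM in exosomes, against 39.4, 2902, 58.7 and 121.1 FPKM in cells. Replicate 2 was the highest library of each group for this gene. For Hsp23 the log2 difference was -1.15 (SE 1.79, limma adjusted p = 0.827).

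Hsp27 had 33.4, 177.8, 18.5 and 62.5 FPKM in exosomes, against 18.0, 2267, 88.5 and 59.2 FPKM in cells. The lowest cell library, replicate 1, lay below the lowest exosome library, replicate 3. Its log2 difference, Hsp27 in exosomes minus cells, was -1.23 (SE 1.75, limma adjusted p = 0.812).

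Hsp22 had 88.9, 204.1, 21.1 and 119.7 FPKM in exosomes, against 26.3, 1534, 82.3 and 96.6 FPKM in cells. In 3 exosome libraries it exceeded cell replicates 1 and 3, while cell replicate 2 was above all exosome libraries. Hsp22 gave a log2 difference of -0.70 (SE 1.78, limma adjusted p = 0.897). Without cell replicate 2, the log2 differences turned positive for Hsp22 (0.47), Hsp23 (0.21) and Hsp27 (0.17), and that of Hsp26 was -0.09. With both libraries numbered 1 left out they moved the other way, to -1.50 for Hsp22, -1.77 for Hsp23, -2.03 for Hsp26 and -1.93 for Hsp27.

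Hsp67Bc stood apart from the other small heat shock genes by its low level. Its protein is a fly relative of human HSPB8 and acts with the co-chaperone Starvin in autophagy. Exosome libraries gave 1.46, 0, 0 and 0 FPKM for Hsp67Bc, against 0.564, 11.2, 0 and 2.16 FPKM in cells. It exceeded an FPKM of 1 in 3 libraries and so failed the filter of 4 libraries above 1, which the other 9 members passed. The cell values of 11.2 and 2.16 correspond to about 17 and 10 fragments. At the depth of exosome replicate 2, 3 fragments of Hsp67Bc would be 38.3 FPKM, against 1.97 and 1.85 FPKM in exosome replicates 3 and 4. A level such as that of cell replicate 2 was therefore not detectable in exosome replicate 2.

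**Figure D1:**
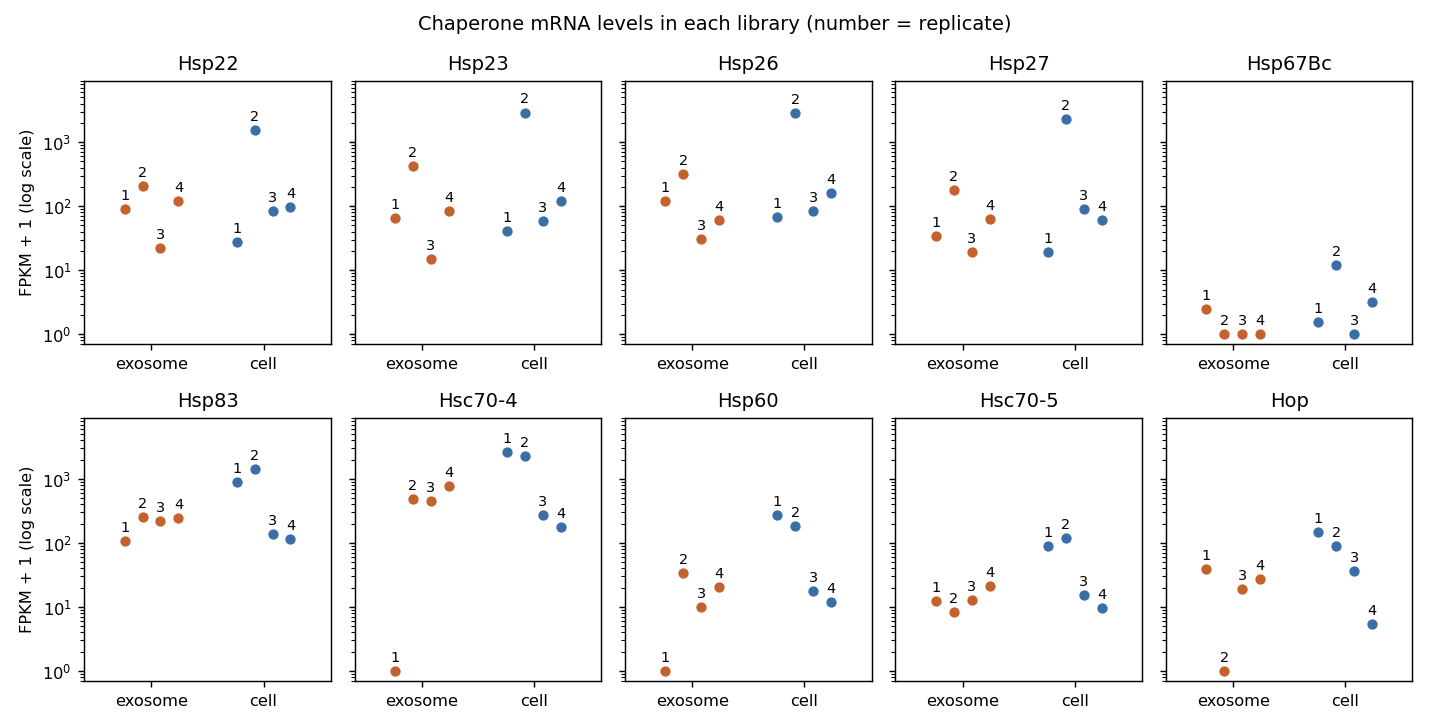
FPKM + 1 of each of the 10 chaperone genes on a log axis, with 1 point per library labelled by its replicate number, exosome libraries left and cell libraries right. Cell replicate 2 is the highest library for all 5 small heat shock genes, and Hsc70-4 and Hsp60 are listed at 0 in exosome replicate 1.

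The order of the abundant small heat shock mRNAs varied. The highest was Hsp26 in exosome replicates 1 and 3 and in cell replicates 1 and 4, Hsp23 in exosome replicate 2 and cell replicate 2, Hsp22 in exosome replicate 4 and Hsp27 in cell replicate 3. Within a library the highest of these 4 exceeded the lowest 2.003-fold to 3.53-fold among exosome libraries and 1.51-fold to 3.66-fold among cell libraries. This spread within a library was smaller than the range of Hsp26 among libraries, 29.5 to 312.0 FPKM over exosomes and 65.8 to 2885 FPKM over cells. In the Release 6 annotation the 5 small heat shock genes lie in a run of 9 genes, in the order Hsp67Bc, Hsp22, Hsp26, Hsp23 and Hsp27, with CG4456 (Hsp67Bb), CG4461, Hsp67Ba and an antisense RNA between them. Hsp22 overlaps CG4456 on the same strand and Hsp27 overlaps CR43483 on the opposite strand. The library kit marks strand, but the sources do not state if the counting did so, and reads of these overlapping pairs may not be separated.

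Constitutive chaperone mRNAs were among the most abundant of the transcriptome in both sources, apart from exosome replicate 1. In that library Hsc70-4 was at 0 and Hsp83 ranked 386th. Hsp83 reached 105.4, 254.8, 219.2 and 239.8 FPKM in exosomes, against 887.8, 1423, 138.9 and 115.9 FPKM in cells. Exosome replicates 2 to 4 lay within a narrow range that fell between the lower and the upper pair of cell libraries. Hsp83 gave a log2 difference of -0.96 (SE 1.90, limma adjusted p = 0.865), close to the median of all tested genes. It was -0.32 without cell replicate 2 and -0.26 with both libraries numbered 1 left out. By rank, Hsp83 was at the 97.3rd to 99.7th percentile in exosomes and at the 99.2nd to 99.4th in cells. Hsp83 overlaps CG14966 on the opposite strand in Release 6.

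Exosome libraries gave Hsc70-4 at 0, 487.8, 443.6 and 762.4 FPKM, against 2612, 2297, 269.2 and 179.0 FPKM in cells. Apart from the 0, every exosome library was above cell replicates 3 and 4 and below cell replicates 1 and 2. Hsc70-4 was the 15th most abundant gene of exosome replicate 3, the 97th of exosome replicate 2 and the 90th of exosome replicate 4, and ranked 62 to 90 in the cell libraries. Between exosomes and cells, Hsc70-4 had a log2 difference of -2.70 (SE 1.91, limma adjusted p = 0.708), the most negative of the tested members. It was -0.42 without exosome replicate 1, the library that listed it at 0, and 0.19 with both libraries numbered 1 left out. The ratio of Hsc70-4 to Hsp83 was 1.91, 2.02 and 3.18 in exosome replicates 2 to 4, against 2.94, 1.61, 1.94 and 1.54 in cell replicates 1 to 4.

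The transcripts assigned to Hsc70-4 differed between libraries. Of its 6 listed transcripts, RA and RC were above 0. RA held 100% of the Hsc70-4 level in exosome replicate 2, 35.5% in exosome replicate 3 and 76.0% in exosome replicate 4, against 15.9% in cell replicate 1 and 100% in cell replicates 2, 3 and 4. RC held the remainder in each library and was thus listed in exosome replicates 3 and 4 and in cell replicate 1. The authors' assignment of fragments to overlapping transcripts is an estimate, and the depth of exosome replicate 2 left about 105 fragments for the whole gene.

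**Figure D2:**
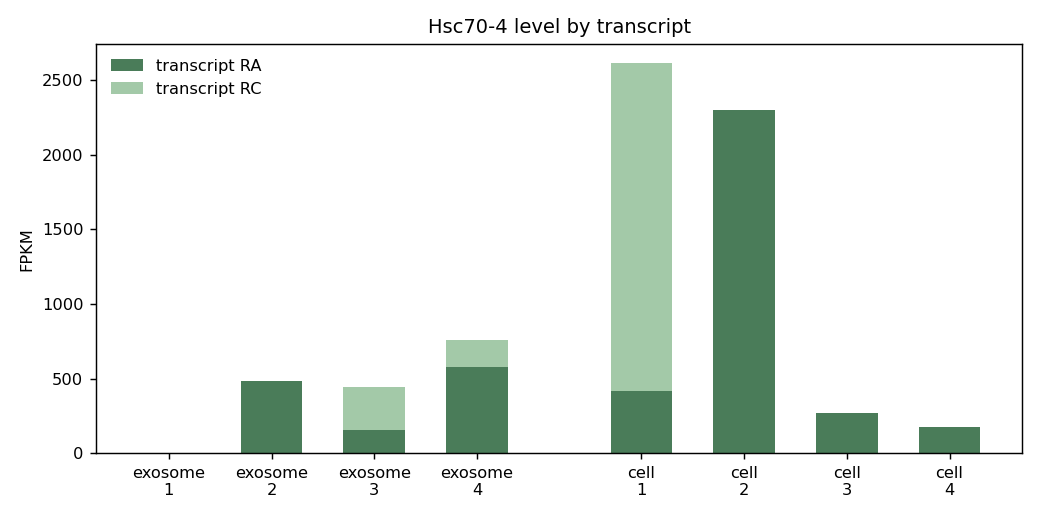
Hsc70-4 FPKM in each library as stacked bars, split by the transcripts RA (dark) and RC (light), exosome libraries left and cell libraries right. RC appears in exosome replicates 3 and 4 and in cell replicate 1, where it holds 84.1% of the level.

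The balance between the small heat shock genes and the constitutive pair varied widely from library to library. As a share of the summed FPKM, the 5 small heat shock genes came to 0.0359%, 0.338%, 0.0911% and 0.0765% in exosome replicates 1 to 4, against 0.0206%, 0.841%, 0.305% and 0.397% in cell replicates 1 to 4. Exosome replicate 2 was the only exosome library inside the range of cell replicates 2 to 4, and the other 3 lay between that range and cell replicate 1. Hsc70-4 and Hsp83 together made up 0.0124%, 0.224%, 0.726% and 0.237% of the exosome libraries, against 0.480%, 0.326%, 0.397% and 0.267% of the cell libraries. The constitutive share was thus of similar size in all 4 cell libraries, whereas the small heat shock share there spanned from 0.0206% to 0.841%. The mean shares of the small heat shock genes were 0.135% ± 0.137 in exosomes and 0.391% ± 0.340 in cells (SD, n = 4 each), a difference smaller than the spread in cells. For the constitutive pair the difference of group means was -0.0678 percentage points with the 0 of Hsc70-4 in exosome replicate 1 included. It was 0.0279 without that library and 0.0654 with both libraries numbered 1 left out. These sums over chosen genes were not tested. Each library is a bulk sample, so fewer vesicles or cells holding an mRNA and less of it in each cannot be told apart.

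**Figure D3:**
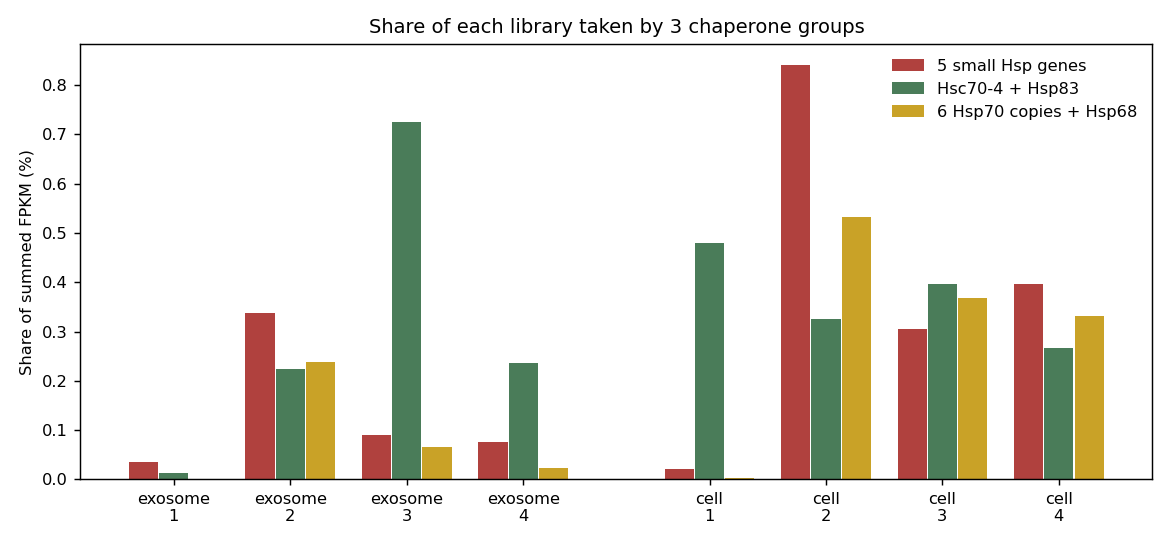
Share of the summed FPKM (%) held by the 5 small heat shock genes, by Hsc70-4 and Hsp83, and by the 6 Hsp70 copies and Hsp68, as bars for each library, exosome libraries left and cell libraries right. The small heat shock share is 0.841% in cell replicate 2 and 0.0206% in cell replicate 1, while the constitutive share of the cell libraries stays between 0.267% and 0.480%.

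A ratio of summed FPKM cancels any factor common to all genes of a library, but not a difference in length scaling. By this ratio the small heat shock genes reached 2.90, 1.51, 0.125 and 0.323 of the constitutive pair in exosomes. In cells they reached 0.0429, 2.58, 0.767 and 1.49. Both groups thus held libraries above and below 1. Whether the libraries numbered 1, at 2.90 and 0.0429, are on the same FPKM scale as the others could not be settled. The mean log2 ratio differed by 0.12 between exosomes and cells, with an SD within groups of 2.37. The high ratio of exosome replicate 1 coincides with the 0 of Hsc70-4. Against Hsp83 alone, a denominator added with the values in view, the ratio was 2.90, 4.41, 0.379 and 1.35 in exosomes and 0.169, 6.75, 2.25 and 3.79 in cells. With both libraries numbered 1 left out, the mean log2 ratio to the constitutive pair differed by -1.86, and the groups still overlapped.

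**Figure D4:**
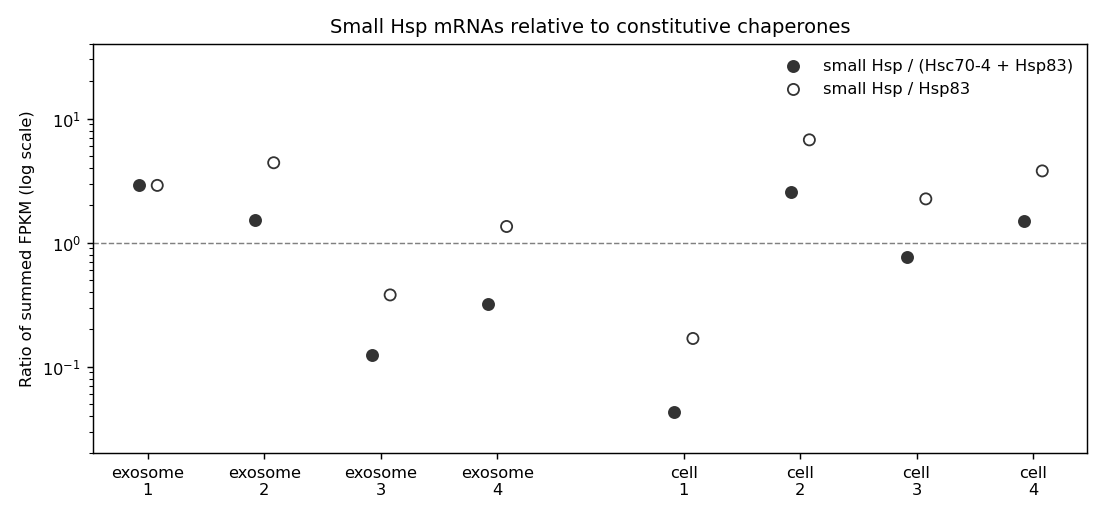
Ratio of the summed FPKM of the 5 small heat shock genes to that of Hsc70-4 and Hsp83 (filled) and to Hsp83 alone (open) on a log axis, for each library, exosome libraries left and cell libraries right; the dashed line marks a ratio of 1. Filled points span 0.125 to 2.90 for exosome libraries and 0.0429 to 2.58 for cell libraries.

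The stress-induced Hsp70 genes followed a similar order of libraries. Summed over the 6 Hsp70 copies and Hsp68, the share was 0%, 0.238%, 0.0654% and 0.0226% in exosomes, against 0.00357%, 0.532%, 0.367% and 0.331% in cells. Among exosomes both sums put replicate 2 first, then 3, 4 and 1. In cells both were highest in replicate 2 and lowest in replicate 1. The Hsp70 copies are nearly identical, so reads may be split among them and their sum is used here. A sum does not restore reads that were not counted. In exosome replicate 1 all 6 copies and Hsp68 were at 0. In cell replicate 1 the copies were at 0 to 0.232 FPKM, against 25.6 FPKM for Hsp68. The last place of these 2 libraries rests on such values, and whether they reflect the level or the counting was not tested.

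By median rank the mitochondrial chaperone mRNAs Hsp60 and Hsc70-5 lay below Hsc70-4, Hsp83 and the 4 abundant small heat shock mRNAs in both sources. This did not hold in cell replicate 1, where Hsp60 and Hsc70-5 exceeded those 4, or in exosome replicate 1, where Hsc70-4 was at 0. Hsp60, the chaperonin of the mitochondrial matrix, had 0, 32.9, 8.99 and 19.3 FPKM in exosomes, against 272.7, 179.4, 16.5 and 10.8 FPKM in cells. By FPKM the groups overlapped, since exosome replicates 2 and 4 exceeded cell replicate 4. Hsp60 showed a log2 difference of -2.63 (SE 1.55, limma adjusted p = 0.708), -1.57 without exosome replicate 1 and -0.81 with both libraries numbered 1 left out. By rank percentile all exosome libraries (33.3, 94.3, 93.3 and 91.3) lay below all cell libraries (97.9, 96.2, 94.6 and 96.6). Hsp60 was the only one of the 9 tested members whose groups did not overlap by rank, where 2.45% of all tested genes lay lower in exosomes in this way and 1.50% higher. In exosome replicate 2 the Hsp60 value rested on about 7 fragments and came from transcript RB, which was at 0 in the other 7 libraries.

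Hsc70-5, the mitochondrial Hsp70, had 11.4, 7.34, 11.7 and 20.4 FPKM in exosomes, against 89.1, 118.9, 14.5 and 8.64 FPKM in cells. Exosome replicates 1 and 3 lay between cell replicates 3 and 4, exosome replicate 2 below both and exosome replicate 4 above both. The value of exosome replicate 2 rested on about 2 fragments. Its log2 difference, Hsc70-5 in exosomes minus cells, came to -1.46 (SE 1.54, limma adjusted p = 0.766).

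Hop had 38.03, 0, 17.9 and 26.6 FPKM in exosomes, against 144.9, 87.5, 35.1 and 4.43 FPKM in cells. The groups overlapped, with cell replicate 4 below the 3 exosome libraries in which Hop was above 0. The 0 of exosome replicate 2 allows up to 16.5 FPKM at that depth, the level of 3 fragments. For Hop the log2 difference was -1.74 (SE 1.54, limma adjusted p = 0.739), and -0.55 without exosome replicate 2. It was -1.12 without cell replicate 1 and -2.70 without cell replicate 4.

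Across the members, the median rank in exosomes ran from the constitutive genes (Hsc70-4 at the 99.3rd percentile, Hsp83 at the 98.9th) through the abundant small heat shock genes (96.7th for Hsp23 to 97.9th for Hsp26) to Hop (93.7th), Hsp60 (92.3rd), Hsc70-5 (90.1st) and Hsp67Bc (32.2nd). In cells the order was Hsc70-4 (99.5th), Hsp83 (99.2nd), Hsp26 (99.1st), Hsp22 and Hsp27 (99.0th each), Hsp23 (98.9th), Hsp60 (96.4th), Hop (94.4th), Hsc70-5 (94.1st) and Hsp67Bc (59.3rd). The ranges of neighbours in each order overlapped, except those of Hsc70-5 and Hsp67Bc in both sources and those of Hsc70-4 and Hsp83 in cells, which only met at the 99.4th percentile.

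None of the members differed between exosomes and cells past the test. Limma called 0 of 5868 genes higher (0%) and 0 lower (0%) in exosomes, and among the 9 tested members 0 were called and 0 had an unadjusted p under 0.05. At that unadjusted level 5 of all tested genes were higher (0.0852%) and 271 lower (4.62%). All 9 tested members had a negative log2 difference, as had 5028 of the 5868 tested genes. The median was -1.31 for the members and -1.01 for all tested genes, with 2 members above the median of all genes and 7 below it. These sides changed with the settings, as given below. With SEs of 1.54 to 1.91 on the log2 scale, differences of several fold lay within the error of this fit. That error was pooled over genes of similar mean level, so an SE does not show the spread of the gene itself. This fit used FPKM without further scaling of the libraries. With the summed FPKM of the libraries made equal, the SEs of the tested members ran from 0.96 (Hsp83) to 1.91 (Hsc70-4), and 0 genes were called. By FPKM the groups overlapped for all 9 tested members, where 0.0341% of tested genes were higher and 0.75% lower without overlap. By share of the library they also overlapped for all 9, where 0.17% of tested genes were higher and 2.83% lower without overlap.

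**Figure D5:**
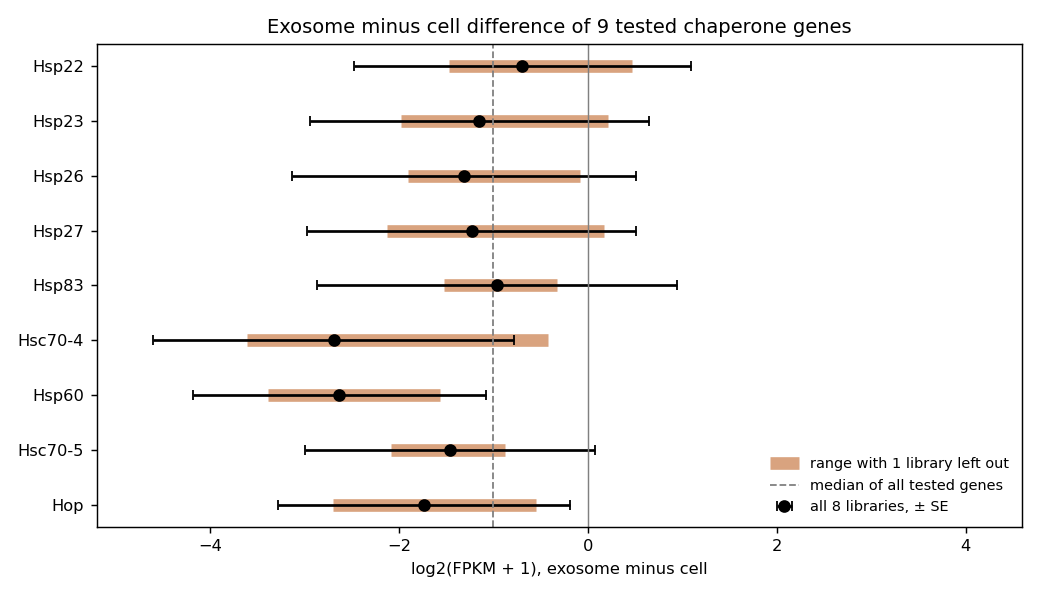
Difference in log2(FPKM + 1), exosome minus cell, for the 9 tested genes: points with SE from limma over all 8 libraries, and shaded bars for the range when 1 library is left out. The dashed line is the median of all tested genes, -1.01; points lie from -2.70 for Hsc70-4 to -0.70 for Hsp22.

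With both libraries numbered 1 left out, Hsp22 and Hsp27 had a lower share of the library in all 3 remaining exosome libraries than in all 3 cell libraries, as had 4.10% of the genes tested. None of the 9 tested members was higher in this way, against 2.32% of the genes tested. By FPKM 0 members stood apart, against 0.167% of tested genes higher and 1% lower. Hsp22 made up 0.0615%, 0.0231% and 0.0283% of exosome replicates 2 to 4, against 0.134%, 0.0801% and 0.0874% of cell replicates 2 to 4. Hsp27 held 0.0535%, 0.0202% and 0.0148% in those exosome libraries, against 0.199%, 0.0862% and 0.0536% in those cell libraries, so that exosome replicate 2 and cell replicate 4 were almost equal. By rank percentile Hsp22, Hsp27 and Hsp60 lay lower without overlap, as did 6.40% of the genes tested, and 0 members lay higher, against 4.81%. Limma called 0 genes in this fit, where 4 were higher and 28 lower at an unadjusted p under 0.05.

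Other chaperone genes showed no called change either. Of 61 listed genes, 49 were tested and limma called 0, with 0 at an unadjusted p under 0.05, and their median log2 difference was -1.14. The Hsp70 and Hsp110 genes had a median of -1.85 over 9 tested genes, with 8 below the median of all genes. These 8 were all listed at 0 in exosome replicate 1, and a 0 there may be a failed estimate. The remaining gene of the list, at 31.5 FPKM in that library, had a log2 difference of -0.83. Most of the 8 are the nearly identical Hsp70 copies, from -2.01 to -1.77. Reads may be split among these copies, so they are not separate measurements. Hsp70Ab, 1 of the heat-induced copies, had 0, 129.9, 11.9 and 16.2 FPKM in exosomes, against 0, 1053, 70.2 and 59.8 FPKM in cells. Hsc70-3, the Hsp70 of the endoplasmic reticulum, had a log2 difference of -3.07 (limma adjusted p = 0.708) and was listed at 0 in exosome replicate 1.

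Co-factors of Hsp70, 10 tested, had a median of -0.92. DnaJ-1, a heat-inducible Hsp40, had 9.19, 43.8, 12.8 and 16.8 FPKM in exosomes, against 46.2, 344.2, 85.5 and 23.2 FPKM in cells. Cell replicate 2 was its highest library, as for the small heat shock genes. Droj2, another Hsp40, had a log2 difference of -2.05 (limma adjusted p = 0.717) and was listed at 0 in exosome replicate 1. Hsf itself, the transcription factor of the heat shock response, had 3.64, 0, 2.98 and 5.35 FPKM in exosomes, against 15.4, 50.7, 9.01 and 4.50 FPKM in cells (log2 difference -2.16, limma adjusted p = 0.708).

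The 9 co-chaperones of Hsp90 had a median of -0.82. The log2 difference was -1.53 for CG16817 (p23), listed at 0 in exosome replicate 1, and 0.12 for Cdc37, which brings kinases to Hsp90. For prefoldin and the chaperonin TRiC, which folds actin and tubulin, the median over 14 genes was -1.07, with the prefoldin genes Pfdn2 at 1.75 and Pfdn6 at 0.65. The TRiC genes all lay below 0, from -2.29 to -0.32, whereas the prefoldin genes lay on both sides of 0, from -1.32 to 1.75. Within each complex the genes listed at 0 in exosome replicate 1 lay lowest, and a 0 there may be a failed estimate. TRiC genes at 0 there lay from -2.29 to -1.86 and the others from -0.82 to -0.32. Prefoldin genes at 0 there lay at -1.32 and the others from 0.65 to 1.75. A difference between the complexes was not tested. The other mitochondrial chaperones had a median of 0.20 over 5 tested genes, all above the median of all genes, with CG11267, the partner chaperonin of Hsp60, at 0.86 and the GrpE homologue Roe1 at 0.41. Of 7 further genes listed with the small heat shock genes, by family or by name, only CG14207 passed the filter. It had a log2 difference of -1.56 and was listed at 0 in exosome replicate 1. CG4456 (Hsp67Bb), which overlaps Hsp22, was listed at 6.20 FPKM in cell replicate 3 and at 0 in the other 7 libraries.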

How the data were processed

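The authors deposited a table of FPKM per transcript for 8 libraries. The unit is not named in its header and was read from the values and from Cufflinks, which the submitters' processing notes name with TopHat2, DESeq2 and the build dm3, without versions or roles. The labels' protocols name a Qiagen micro kit for the RNA and a strand-marking (directional) NEB kit for the libraries. The 21081 transcripts were summed to 14012 genes by identifier, of which 13635 matched a symbol in the Release 6 annotation. No coordinates or sequences are given, since the build differs and no sequence was used here.

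The 5868 genes exceeding 1 FPKM in 4 or more libraries were tested with limma 3.58.1 (R 4.3.3) on log2(FPKM + 1), with a trend, no block and Benjamini-Hochberg adjustment over all tested genes at 0.05. Fold changes on this scale understate the change of low genes. The pipeline was tested on simulated data, which had less spread among libraries than these data and no differences in library scale. That test does not show how large a change could be detected here. Depth was estimated from single-transcript genes longer than 1200 bases: values times length less 200 bases fell within 0.1 of a whole multiple (up to 4) of 1 step for 69.3% to 88.9% of low values in 6 libraries, where even spread gives 20%, and for 31.6% in exosome replicate 1 and 37.7% in cell replicate 1, where no step was assigned. Fragment numbers are estimates, cover counting error only and use Release 6 transcript lengths. Alternatives were other pseudocounts, filters and scalings, a replicate block and leaving out libraries.

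The members and lists were chosen with earlier results of these data known. The named genes are the 10 members and, from each list of other chaperones, the 2 with the highest mean FPKM and any that limma called. The transposon table was not used, and 0 columns of values of the gene table were left unused.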

Additional observations from a re-analysis of the deposited data

Results flagged for a closer look

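A sample far from the rest of its group was sought in 48 sets of 4 libraries, and 8 were marked. The sets were the FPKM and share of each member, the shares of the small heat shock genes and of the constitutive pair, their ratio, and that of Hsc70-4 to Hsp83. Chance marks about 1 in 20 independent sets of normally distributed values. These sets share genes and libraries and hold values not on a log scale, so that rate does not apply directly to them. Cell replicate 2 stood apart from the other cell libraries in the FPKM of Hsp22 (1534), Hsp23 (2902), Hsp26 (2885) and Hsp27 (2267). By share of the library these genes did not mark cell replicate 2. The summed FPKM of that library, 1140885, was the highest of the 8, and its part in these values was not tested further. Exosome replicate 2 stood apart for Hsp23, at 430.0 FPKM and at 0.129% of the library, which rested on about 28 fragments. Exosome replicate 1 stood apart for Hsp67Bc, at 1.46 FPKM and 0.000172% of the library, while the other 3 exosome libraries listed it at 0. Any value above 0 would be marked against 3 values of 0, and 3 fragments in exosome replicates 2 to 4 correspond to 38.3, 1.97 and 1.85 FPKM of Hsp67Bc, all above 1.46 FPKM, so no difference was detectable at this depth.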

How the results depend on the processing

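No member was called by limma in any of the 153 alternative fits of a tested member (adjusted p for Hsp60 from 0.212, without cell replicate 4, to 0.9996), and 0 genes in all were called in each alternative, where 2 to 206 were higher and 18 to 1213 lower at an unadjusted p under 0.05. Directions held except in 4 of those fits: Hsc70-4 was at 0.19 with both libraries numbered 1 left out, and Hsp22, Hsp23 and Hsp27 turned without cell replicate 2. With 1 library left out, log2 differences ran from -1.47 to 0.47 for Hsp22, -1.98 to 0.21 for Hsp23, -1.91 to -0.09 for Hsp26, -2.13 to 0.17 for Hsp27, -1.53 to -0.32 for Hsp83, -3.61 to -0.42 for Hsc70-4, -3.39 to -1.57 for Hsp60, -2.09 to -0.88 for Hsc70-5, -2.70 to -0.55 (without exosome replicate 2) for Hop and -1.65 to -0.44 for Hsp67Bc. The untested value of Hsp67Bc was -1.15, and -2.52 with a pseudocount of 0.1; the cause is the weight a smaller pseudocount gives to values at 0. For this gene the stricter filter, quantile normalization and the block gave no value, as it failed the filter. By mean rank percentile in place of sums, exosomes less cells, the small heat shock genes less the constitutive pair came to 7.32, the small heat shock genes to -1.21 and the constitutive pair to -8.53 percentile points. The 7.32 and the -8.53 rest on exosome replicate 1, where the mean percentile of the constitutive pair was 65.3 with Hsc70-4 at 0, against 99.1, 99.8 and 99.1 in exosome replicates 2 to 4 and 99.3 to 99.5 in cells. With Hsp83 alone as denominator, added with the values in view, the mean log2 ratio differed by -0.14. With 1 library left out that ratio to the constitutive pair ran from -1.14 to 0.91, the small heat shock share from -0.379 to -0.105 and the constitutive share from -0.210 to 0.0279 percentage points, the last without exosome replicate 1. Quantile normalization moved the median of all genes from -1.01 to 0.11 and all 9 members then lay below it. A pseudocount of 0.1 moved it to -1.69, and Hsp22, Hsp23, Hsp26, Hsp27, Hsp83 and Hsc70-5 then lay above it. Hsc70-4, Hsp60 and Hop lay below it. Without cell replicate 2 it was -0.61, with Hsp22, Hsp23, Hsp26, Hsp27 and Hsp83 above it and the other tested members below. The side of the median thus depended on the setting for several members.

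With the replicate number as a block, 0 genes were called, and 5 were higher and 163 lower at an unadjusted p under 0.05. The block leaves the differences themselves as they are by construction, with 1 library of each source per number (Hsc70-4 at -2.70), and bears only on the error. Deviations of same-numbered libraries from their group means correlated at 0.233, 0.191, 0.452 and -0.0676 over genes for numbers 1 to 4. Exosome replicates 1, 2 and 3 each correlated best with the cell library of their own number, whereas exosome replicate 4 correlated best with cell replicate 2 (0.413). The design text does not tie a number to an experiment. Whether the numbers pair the libraries is thus not known, and the main fit did not pair them. Depth limits the low members most: in exosome replicate 2, 3 fragments correspond to 11.1 FPKM for Hsc70-5 and 46.5 FPKM for Hsp23.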
